A study of Canis lupus with 20 samples.

Results

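The left atrium and the left ventricle of healthy dogs were compared on 10 Affymetrix canine expression arrays, 5 of sham operated left atrium and 5 of sham operated left ventricle, out of 20 arrays in the series. The arrays were chosen by their labels alone, so no measured value entered the choice. All animals were described as normal dogs. The dogs of interest had a sham operation, and heart tissue was taken 12 weeks later. The other 10 arrays, 5 per chamber, came from dogs that had lost the right kidney (uninephrectomy) 12 weeks before. They entered the estimate of the spread, the choice of the probe sets tested and the choice of the probe set that stands for a gene. Otherwise they serve here as a second comparison of the same chambers. Of the 6 dogs assigned to an operation, 5 samples of either chamber were hybridised, each to 1 array. Breed, sex and age are not given in the sources used here. The samples are pieces of whole tissue, so fewer cells of a type and less RNA per cell cannot be told apart in any value below.

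The atria are thin-walled chambers that receive blood and release natriuretic peptides, and the left ventricle is the thick-walled pump of the systemic circulation. Their myocytes are built from different myosin light chains: MYL7 and MYL4 are the atrial regulatory and essential chains, MYL2 and MYL3 the ventricular ones. During development, nuclear receptors of the COUP-TF family (NR2F1 and NR2F2) mark atrial and Iroquois homeobox factors (IRX) ventricular myocardium. Atrial and ventricular action potentials differ in shape, to which potassium currents contribute, and ventricular myocytes work against a higher load with a high demand for mitochondrial fuel oxidation.

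Values are log2 levels as deposited. A difference is the atrial minus the ventricular mean on this scale with its standard error (SE), so a difference of 1 is a doubling in the atrium and -1 a doubling in the ventricle. A gene was called where limma's adjusted p, over all 30047 probe sets tested, lay under 0.05. The middle of each array lies near log2 2.3 (array medians 2.34 to 2.39), so a level around that value may be background only, and a gene with a mean under log2 3 in both chambers is called dim here. Levels of different genes are not compared, because each probe set has its own response. Results are also given with the block where that changed a call, meaning a fit of the sham arrays alone in which arrays with the same number form a pair. The labels do not tie an array to a dog, and the p-values measure only the spread between these samples.

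The labels were checked on 4 chamber markers. MYL7 had levels of 14.20, 14.48, 14.32, 14.32 and 14.33 on the 5 atrial arrays and 11.79, 12.73, 12.16, 12.59 and 12.28 on the 5 ventricular arrays, a difference of 2.02 ± 0.13, adjusted p = 2.94e-09. NR2F1 had 9.35, 9.12, 8.98, 9.63 and 9.42 in the atrium and 2.51, 2.48, 2.67, 2.28 and 2.49 in the ventricle, a difference of 6.81 ± 0.13, adjusted p = 9.87e-18. In both genes every atrial array lay above every ventricular array. MYL2 had 3.81, 3.58, 2.70, 5.53 and 3.45 in the atrium and 14.57, 14.27, 15.02, 14.62 and 14.82 in the ventricle, a difference of -10.85 ± 0.57, adjusted p = 9.94e-11. IRX5 had 1.15, 1.17, 0.96, 0.62 and 1.04 in the atrium and 6.93, 5.14, 7.24, 7.28 and 6.87 in the ventricle, a difference of -5.70 ± 0.41, adjusted p = 1.04e-08. Here every ventricular array lay above every atrial array, and no array went against its label. Over the lists of known chamber markers, 10 of 15 tested atrial markers were higher in the atrium and 0 lower, and 10 of 12 ventricular markers were higher in the ventricle and 1 in the atrium (CNTN1; 0 with the block). The shares to be set beside such counts are 12% of all 11423 genes called higher in the atrium and 10.8% called higher in the ventricle. The lists were chosen with earlier results of these data known, so their counts are no check of the labels. NPPA, MYH6 and HEY2 were not analysed here, because none of their probe sets had that 1 symbol or passed the filter on dim values.

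**Figure D1:**
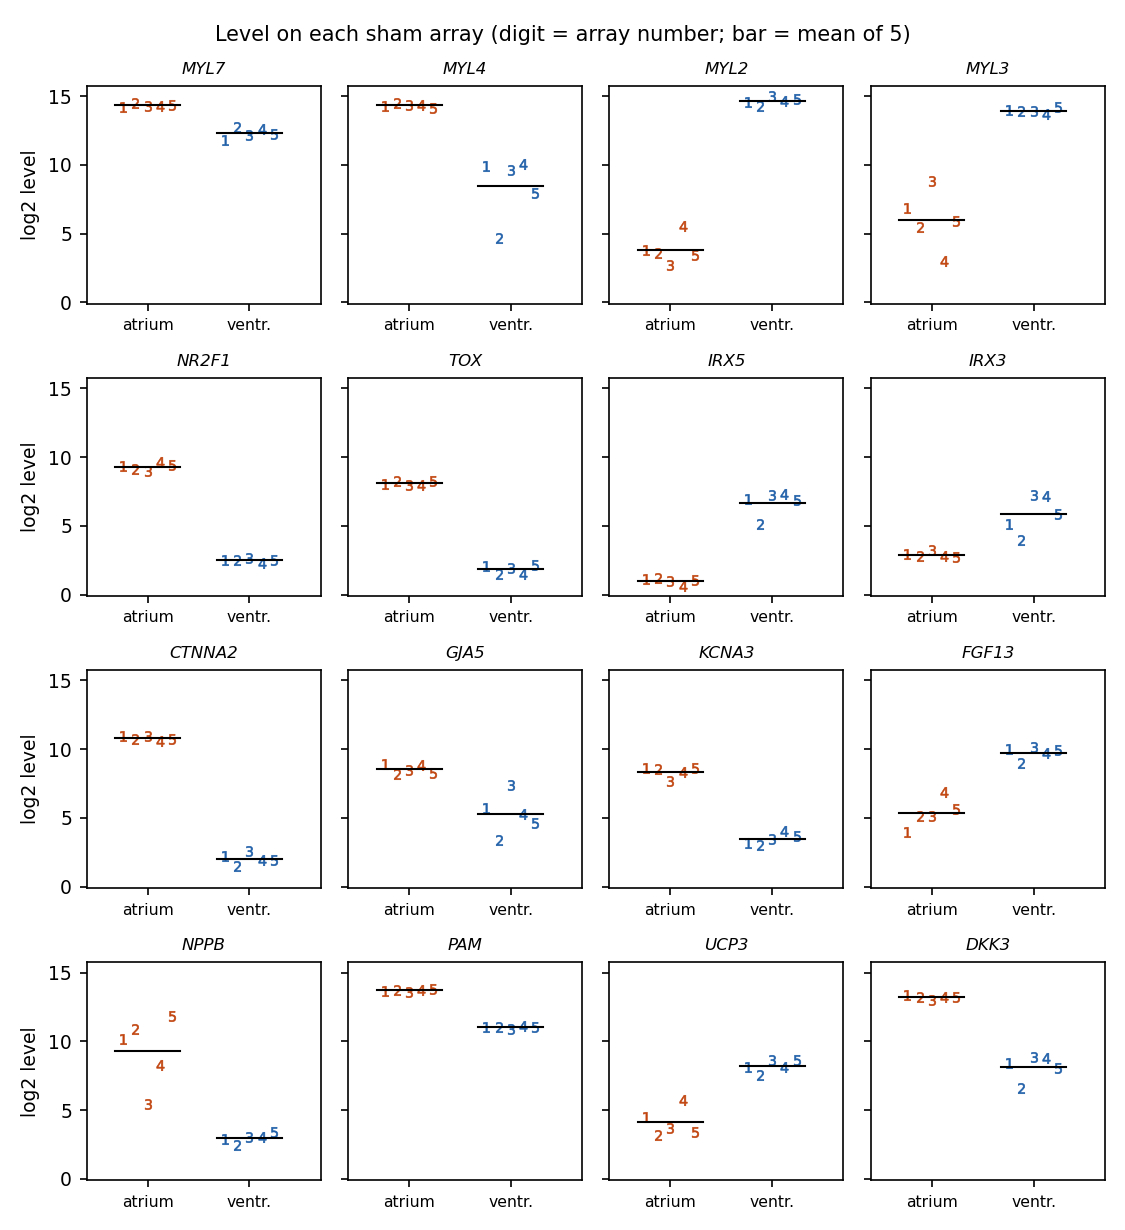
Log2 level of 16 genes on each sham array, atrium in orange and ventricle in blue; each digit is the number of the array in its group and each bar the mean of 5. The atrial and ventricular arrays do not overlap in any of the 16 genes, nor in 148 of all 158 called genes at least 4-fold apart. The spread is wide in MYL3 and NPPB in the atrium and in MYL4 in the ventricle.

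Chamber was the main axis of variation. The first principal component of the 10 sham arrays held 55% of the variance and separated the chambers. Correlations between arrays over the tested probe sets ran from 0.986 to 0.993 within the atrium, from 0.985 to 0.993 within the ventricle and from 0.968 to 0.981 between them. No array stood apart. Control probe sets that read the 3' end of a transcript exceed those further upstream when RNA is degraded, and this 3' gap (log2, mean of ACTB, GAPDH and EEF1A) was 1.19 ± 0.19 (SD, n = 5) in the atrium and 1.42 ± 0.27 in the ventricle (two-sided exact permutation p = 0.159, adjusted over 4 tests p = 0.318). Of its 3 components the EEF1A gap differed by more than those of ACTB and GAPDH, 0.98 ± 0.32 against 1.62 ± 0.27 (exact permutation p = 0.0238, adjusted p = 0.0952). With the gap as a covariate the fit called 6614 probe sets instead of 6257, and 5275 of the 6257 (84.3%) were among them.

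In sham dogs 1370 genes were called higher in the atrium (12% of 11423 tested) and 1233 higher in the ventricle (10.8%), and 8820 were not called. Over probe sets the counts were 3367 (11.2% of 30047) and 2890 (9.62%). Most differences were small: the median absolute difference was 0.16 over all genes and 0.53 over the called ones, with a median SE of 0.10. A difference of more than 1.5-fold was shown by limma's treat test for 186 genes in the atrial direction (1.63%) and 92 in the ventricular direction (0.805%). The large differences leaned towards the atrium, with 112 called genes at least 4-fold higher there against 46 in the ventricle, and 55 against 22 at 8-fold or more. In 955 genes (8.36%) every atrial array lay above every ventricular array, and in 855 (7.48%) the reverse. Of the 158 called genes at least 4-fold apart 148 were separate in this way. Separate arrays are therefore usual among the wide differences named below. In 35 called genes the ventricular mean was under log2 3 and the atrial mean 5 or more, and in 10 the reverse. At the other end, 4189 genes had a mean of 6 or more in both chambers, and in 2661 of these (63.5%) the 95% confidence interval of the difference lay within 1.5-fold.

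**Figure D2:**
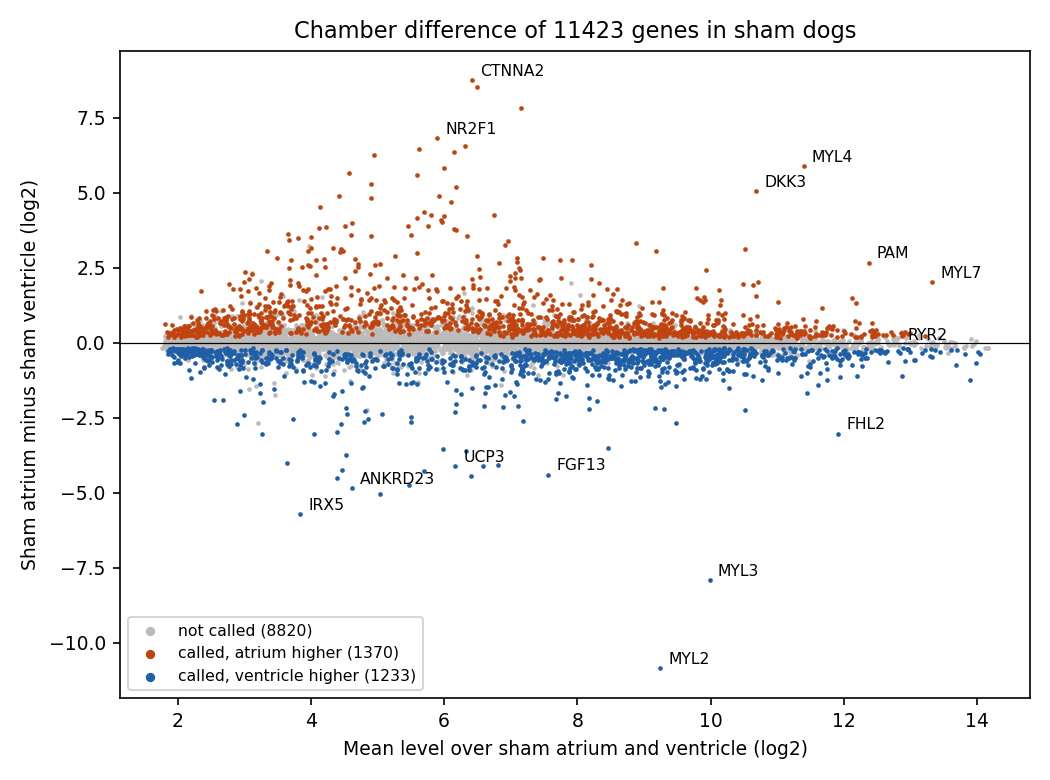
Difference of the sham chamber means (atrium minus ventricle, log2) against the mean level of both for 11423 genes; orange points were called higher in the atrium, blue points higher in the ventricle, grey points were not called. The median difference of all genes is -0.01, and the extremes are CTNNA2 at 8.75 and MYL2 at -10.85.

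The same comparison in uninephrectomized dogs, on arrays that none of the sham means use, called 1852 genes higher in the atrium (16.2%) and 1566 higher in the ventricle (13.7%). Of the 2603 genes called in sham dogs 2147 were called in the same direction there, 82.5% of the sham and 62.8% of the uninephrectomized calls, and 0 in the opposite direction. Of the 278 genes beyond 1.5-fold in sham dogs 277 were called in the same direction. Both comparisons came from the same fit and share its estimate of the spread of each gene. A gene with a small spread is thus favoured in both, and the overlap of calls is not an independent replication. The differences of the 2 operations had a Pearson correlation of 0.945 across genes, which are not independent replicates. The test of the difference between the operations (limma, interaction) called 0 genes and 0 probe sets (893 probe sets and 320 genes at an unadjusted p under 0.05).

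In the thick filament the myosin light chains held the widest differences, and all 4 chamber chains were called. MYL3 had 6.89, 5.46, 8.81, 3.03 and 5.95 on the atrial and 13.99, 13.90, 13.90, 13.68 and 14.21 on the ventricular arrays, a difference of -7.91 ± 0.72, adjusted p = 2.73e-07. MYL4 had 14.32, 14.48, 14.36, 14.33 and 14.17 in the atrium and 9.91, 4.69, 9.60, 10.09 and 7.98 in the ventricle, a difference of 5.88 ± 1.07, adjusted p = 5.99e-04. Each chain varied more in the chamber where it was low: the SD of MYL4 was 2.27 in the ventricle and 0.11 in the atrium, and that of MYL3 2.11 in the atrium and 0.19 in the ventricle. The second probe set of MYL3 gave -7.66 and that of MYL4 6.03. Without ventricular array 2 the MYL4 difference was 4.94. Without atrial array 3 the MYL3 difference was -8.61 and without atrial array 4 -7.16. The atrial chain MYL7 stayed at 11.79 to 12.73 in the ventricle, and the ventricular chain MYL2 at 2.70 to 5.53 in the atrium.

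The light chains of smooth and non-muscle myosin were also higher in the atrium. MYL9, the smooth muscle regulatory chain, had a mean of 11.73 ± 0.33 (SD, n = 5) against 9.70 ± 0.22, a difference of 2.03 ± 0.18, adjusted p = 1.47e-07. MYL6, the essential chain of smooth and non-muscle cells, differed by 0.72 ± 0.09, adjusted p = 7.89e-06, and MYH11, the smooth muscle heavy chain, by 1.23 ± 0.33, adjusted p = 0.0119. In MYL6 and MYL9 the arrays of the chambers did not overlap, and in MYH11 they did. Over all genes 8.36% were separate with the atrium higher. The mean of the MYH11 probe sets was not called (0.53, adjusted p = 0.0743). Of 22 tested myosin genes 7 were higher and 7 lower in the atrium, 31.8% each way.

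MYH7, the slow (beta) heavy chain, was read by 5 tested probe sets that disagreed in size. The brightest had 13.53 to 13.74 in the atrium and 14.17 to 14.49 in the ventricle, a difference of -0.68 ± 0.10, adjusted p = 5.48e-05. A second bright one differed by -0.44 ± 0.47 and was not called. The third and the fourth by level differed by -3.74 ± 0.39 and -4.34 ± 0.34, both called, and the dimmest was higher in the atrium at 0.25. MYH7 and the atrial alpha heavy chain MYH6 are closely similar in sequence, and whether the probe sets tell them apart was not examined. The size of the chamber difference of MYH7 depended on the probe set and is uncertain. MYH7B, a related slow heavy chain, was lower in the atrium (difference -0.73 ± 0.17, adjusted p = 0.00548), as was MYOM2, which crosslinks the thick filaments at the M-band (difference -0.69 ± 0.16, adjusted p = 0.00422). Other probe sets of both genes were not called. Among these were the next brightest ones, at -0.75 ± 0.27 for MYH7B (adjusted p = 0.0598) and -0.75 ± 0.27 for MYOM2 (adjusted p = 0.0577). A further MYOM2 probe set was called at -0.75 ± 0.14. As the mean of their probe sets both genes stayed called.

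Genes of the thin filament, titin and the Z-disc were called lower in the atrium more often than higher. Of 52 tested 20 were lower in the atrium (38.5%) and 4 higher (7.69%), with a median difference of -0.30 against -0.01 over all genes. The brightest probe sets of cardiac actin and troponin T were not called. ACTC1, cardiac alpha-actin, had 13.92 to 14.14 in the atrium and 13.80 to 14.11 in the ventricle (difference 0.07, 95% confidence interval -0.09 to 0.23). Its other probe set was called higher in the atrium (difference 0.38 ± 0.11, adjusted p = 0.0221). ACTC1 was also called higher there after quantile normalization (difference 0.28) and as the mean of its probe sets (difference 0.22). TNNT2, cardiac troponin T, had a difference of -0.16 with an interval of -0.42 to 0.10. TNNI3, cardiac troponin I, was lower in the atrium (difference -0.38 ± 0.06, adjusted p = 5.81e-05). ACTA1, the skeletal alpha-actin that the heart also expresses, was lower in the atrium on every array, 12.77 to 13.86 against 14.27 to 14.71 (difference -1.24 ± 0.17, adjusted p = 3.62e-05).

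Wider differences lay in accessory proteins. ANKRD23, an ankyrin repeat protein that binds titin, had 2.29, 2.26, 2.60, 1.86 and 1.99 in the atrium and 7.21, 6.41, 6.76, 6.86 and 7.92 in the ventricle (difference -4.83 ± 0.21, adjusted p = 6.46e-12). MYOT, the Z-disc protein myotilin, had 1.87 to 2.71 against 4.67 to 8.25 (difference -4.23 ± 0.61, adjusted p = 6.25e-05). FHL2, a LIM protein of the Z-disc and nucleus, stayed bright in both, 9.65 to 10.76 against 13.19 to 13.71 (difference -3.02 ± 0.27, adjusted p = 1.69e-07). SMYD2, a lysine methyltransferase found at the sarcomere, differed by -2.66 ± 0.27. All 4 were separate between the chambers on every array. MYOZ1, a calcineurin-binding Z-disc protein also known as calsarcin-2, ran the other way, with 9.04, 9.42, 8.97, 9.28 and 8.88 in the atrium and 6.10, 6.26, 7.39, 5.91 and 6.15 in the ventricle (difference 2.76 ± 0.35, adjusted p = 1.32e-05). PDLIM3, an actinin-associated LIM protein, was higher in the atrium by 0.93 ± 0.21.

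Titin, the giant spring of the sarcomere, was read by 20 tested probe sets. On 16 of them, including the 4 brightest, no difference was called, and the brightest had 13.44 to 13.77 in the atrium and 13.44 to 13.75 in the ventricle (difference -0.02, 95% confidence interval -0.18 to 0.15). The other 4 were called higher in the atrium. Of these, 3 probe sets, 2 of which carry the same target number, had differences of 1.98 ± 0.37, 2.63 ± 0.52 and 2.21 ± 0.43, with adjusted p of 7.37e-04, 0.00122 and 0.00114, and the remaining one 0.54 ± 0.18. The chamber difference of titin thus depended on the probe set, and the mean of the 20 probe sets was called at 0.39 where the brightest was not. Which exons the probe sets read was not examined.

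**Figure D3:**
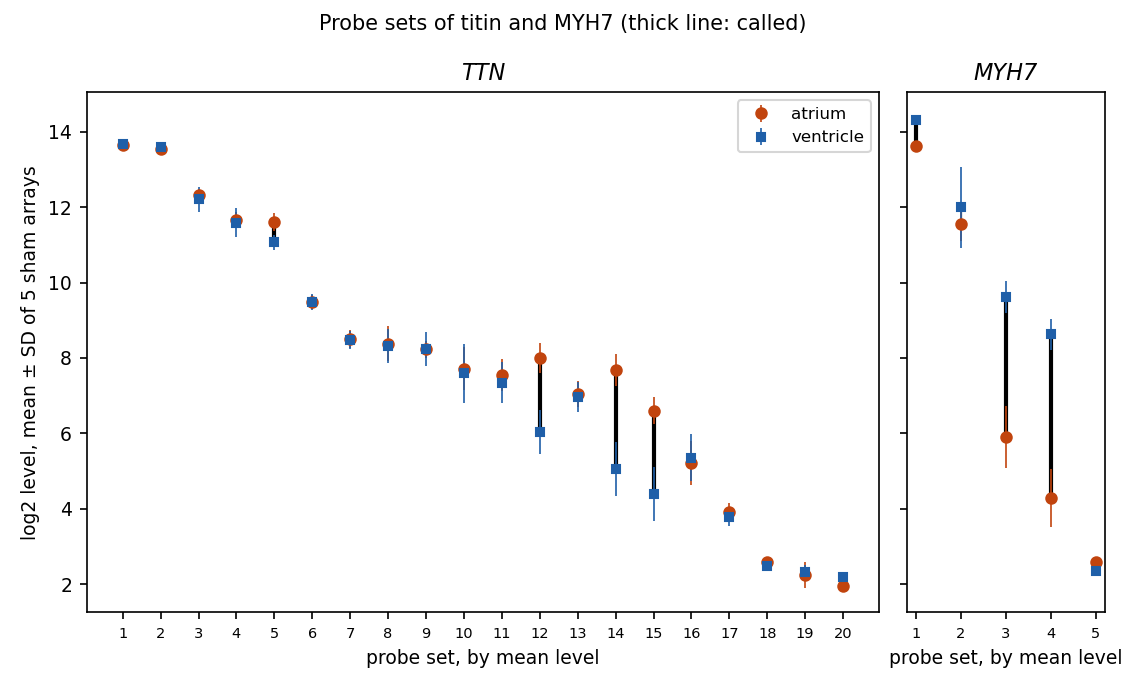
Mean ± SD (n = 5) of sham atrium (orange circles) and sham ventricle (blue squares) for the 20 tested probe sets of titin and the 5 of MYH7, ordered by mean level, with log2 level on the vertical axis; thick lines join probe sets that were called. In titin 16 probe sets were not called and 4 were higher in the atrium, 3 of them by 1.98 to 2.63; in MYH7 the difference was -0.68 on the brightest and -4.34 on the fourth.

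Of 38 tested factors of heart development and cardiac metabolism 10 were higher in the atrium (26.3%) and 6 lower (15.8%), with a median difference of 0.03. Beside NR2F1, whose dimmer second probe set gave 1.02, TOX, an HMG-box factor best known from T cell development, was near the low end in the ventricle. It had 8.03, 8.23, 7.95, 7.99 and 8.23 in the atrium and 2.05, 1.49, 1.91, 1.52 and 2.14 in the ventricle, a difference of 6.26 ± 0.12, adjusted p = 1.24e-17. NR2F2, the second COUP-TF, differed by less, 5.51 to 6.62 against 4.34 to 5.29 (difference 1.19 ± 0.22, adjusted p = 6.81e-04). SOX5, an SRY-related factor, had 3.42 to 5.36 against 2.04 to 2.54 (difference 2.01 ± 0.26, adjusted p = 1.73e-05). ETV1, an ETS factor that marks fast-conducting atrial and Purkinje myocytes, had 5.71, 6.01, 3.79, 6.23 and 6.26 in the atrium and 2.54, 1.69, 3.99, 3.48 and 2.34 in the ventricle, so that atrial array 3 overlapped the ventricular arrays (difference 2.79 ± 0.47, adjusted p = 2.71e-04). PBX3, a TALE homeobox factor, differed by 1.93 ± 0.41, with ventricular array 2 among the atrial values.

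On the ventricular side IRX3 and IRX2 followed IRX5. IRX3, which acts in the ventricular conduction system, had 2.92, 2.80, 3.22, 2.83 and 2.73 in the atrium and 5.12, 3.96, 7.27, 7.17 and 5.82 in the ventricle (difference -2.97 ± 0.61, adjusted p = 0.00172), and the dim IRX2 differed by -1.16 ± 0.24, adjusted p = 0.00162. All 3 Iroquois genes were separate between the chambers on every array, as were 7.48% of all genes with the ventricle higher. RXRG, the gamma retinoid X receptor, had 2.33 to 2.72 against 4.58 to 5.66 (difference -2.55 ± 0.24, adjusted p = 3.51e-07). MEIS2, a TALE factor, was lower in the atrium (difference -0.54 ± 0.13). Neither HAND2, a factor of heart development, nor PPARGC1A, the coactivator of mitochondrial genes, was called. HAND2 had a difference of 0.02 (-0.35 to 0.39), and PPARGC1A -0.12 (-0.37 to 0.13), with the 95% confidence intervals in parentheses.

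Ion channel genes were called in both directions. In the atrium 4 of 24 potassium channel genes were higher (16.7%) and 5 lower (20.8%; 3 without atrial array 1 or 2 or ventricular array 1, 4 or 5), and 3 of 17 sodium, calcium and other channel genes were higher (17.6%) and 0 lower. Over all genes 12% were higher and 10.8% lower, and the shares of channel genes called higher lie only a little above that. KCNJ3, a subunit of the acetylcholine-activated potassium channel through which the vagus slows the heart, had 5.30, 4.07, 4.98, 5.48 and 4.72 in the atrium and 2.03, 1.85, 2.29, 1.91 and 2.26 in the ventricle (difference 2.84 ± 0.24, adjusted p = 7.30e-08). The arrays were separate. GNAO1, the G protein subunit alpha-o, and RGS6, which speeds the shut-off of that channel's G protein signal, were higher as well. GNAO1 had 8.05, 7.92, 7.29, 8.12 and 8.05 against 3.42, 4.03, 3.10, 3.72 and 3.28 (difference 4.38 ± 0.26, adjusted p = 6.70e-10), and RGS6 differed by 0.86 ± 0.15, adjusted p = 4.49e-04. Over the 28 tested receptors and G protein genes, 3 were higher (10.7%) and 2 lower (7.14%), which is near the background. Those lower in the atrium were the alpha-1B adrenoceptor ADRA1B at -0.82 ± 0.14 and the receptor kinase GRK5 at -0.86 ± 0.22.

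The subunits around the transient outward potassium current differed in opposite directions. KCNIP2, the KChIP2 subunit of Kv4 channels, had 11.47, 11.87, 11.05, 11.78 and 11.87 in the atrium and 9.42, 11.03, 9.84, 8.98 and 9.06 in the ventricle (difference 1.94 ± 0.41, adjusted p = 0.00216). DPP6, another accessory protein of Kv4, had 1.61, 2.13, 3.05, 2.14 and 4.36 in the atrium and 6.41, 6.32, 5.51, 6.65 and 7.15 in the ventricle (difference -3.75 ± 0.38, adjusted p = 1.16e-06). The pore gene KCND3 was lower in the atrium (difference -0.38 ± 0.11). ABCC8, the SUR1 subunit of ATP-sensitive potassium channels, was higher in the atrium by 1.94 ± 0.34, adjusted p = 4.53e-04, and KCNJ4, the inward rectifier Kir2.3, lower (difference -0.89 ± 0.21). KCNA5, the atrial ultrarapid channel Kv1.5, had 3.82 to 4.81 against 2.88 to 4.00 and was not called (difference 0.91 ± 0.37, adjusted p = 0.0919). It was called on the sham arrays alone without (adjusted p = 0.028) and with the block (adjusted p = 0.00515), with the 3' gap as a covariate and without uninephrectomy atrial array 4 (adjusted p = 0.0111).

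Wider differences were found in channel genes that are not part of the main cardiac currents. KCNA3, SCN11A and FGF13 are on neither channel list and not in the counts above. KCNA3 (Kv1.3), a potassium channel best known from lymphocytes, had 8.60, 8.56, 7.69, 8.31 and 8.61 in the atrium and 3.14, 3.06, 3.48, 4.03 and 3.67 in the ventricle (difference 4.88 ± 0.24, adjusted p = 4.99e-11). SCN11A (Nav1.9), a sodium channel of sensory neurons, had 6.21, 8.502, 8.02, 5.78 and 8.499 against 1.46, 1.72, 1.86, 1.65 and 2.09 (difference 5.65 ± 0.79, adjusted p = 4.32e-05). CACNA2D3, an accessory subunit of calcium channels, had 6.86, 7.13, 4.53, 7.51 and 6.30 against 2.68, 2.02, 2.88, 2.52 and 2.74 (difference 3.90 ± 0.37, adjusted p = 4.24e-07; 1.56 as the mean of its 3 probe sets). No array of one chamber overlapped the other in these 3 genes. FGF13, an intracellular protein that binds the tails of sodium channels, was high in the ventricle, with 3.96, 5.15, 5.17, 6.89 and 5.62 in the atrium and 9.998, 8.97, 10.13, 9.71 and 9.95 in the ventricle (difference -4.39 ± 0.38, adjusted p = 1.55e-07; -1.93 as the mean of its 3 probe sets). The chloride channel gene CLCN3 was higher in the atrium by 0.67 ± 0.11.

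Of 26 tested genes of gap junctions and intercalated discs 5 were higher and 5 lower in the atrium. That is 19.2% each way, against 12% and 10.8% of all genes. Those lower were 3 without atrial array 2 or ventricular array 1 or 5. CTNNA2, the alpha-catenin first described in neurons, gave the largest atrial excess of the 11423 genes, with 10.94, 10.72, 10.93, 10.62 and 10.75 in the atrium and 2.22, 1.499, 2.61, 1.95 and 1.92 in the ventricle. The difference was 8.75 ± 0.14, adjusted p = 9.84e-19, and its other 3 probe sets gave 5.34, 2.03 and 2.62, all called. The ubiquitous alpha-catenin CTNNA1 had a difference of -0.17 (-0.32 to -0.02) and beta-catenin CTNNB1 one of 0.06 (-0.13 to 0.25), neither called, although CTNNA1 was with the 3' gap as a covariate (difference -0.24). GJA5, the atrial and Purkinje connexin 40, had 8.89, 8.23, 8.45, 8.84 and 8.28 against 5.70, 3.41, 7.38, 5.25 and 4.63 (difference 3.26 ± 0.63, adjusted p = 0.00102). CXADR, a receptor protein of the disc, was higher in the atrium by 0.67 ± 0.12. N-cadherin (CDH2) was lower (difference -0.41 ± 0.06), but not called as the mean of its probe sets (-0.26, adjusted p = 0.118). Ankyrin-G (ANK3), which anchors sodium channels at the disc, was lower too (difference -0.53 ± 0.08).

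Of 31 tested genes of calcium handling 2 were higher (6.45%) and 5 lower (16.1%) in the atrium, against 12% and 10.8% of all genes. After quantile normalization and with the mean of each gene's probe sets 3 were lower. The ryanodine receptor RYR2 had 12.76 to 12.85 in the atrium and 12.76 to 12.93 in the ventricle, a difference of -0.05 with a 95% confidence interval of -0.17 to 0.08. The calcium pump ATP2A2 had a difference of 0.13 (-0.02 to 0.29) and was not called, but was called higher in the atrium after quantile normalization (difference 0.32) and with the 3' gap as a covariate (difference 0.20). PLN (phospholamban), the inhibitor of that pump, was lower in the atrium (difference -0.24 ± 0.07, adjusted p = 0.0123), but was not called after quantile normalization (difference -0.06) or with the block (adjusted p = 0.0702). Several regulators were called. PPP1R1A, the phosphatase inhibitor-1 that prolongs adrenergic signals, was lower in the atrium, 8.01 to 8.94 against 9.45 to 9.71 (difference -1.09 ± 0.16, adjusted p = 7.61e-05), as was ASPH, which encodes junctin (difference -0.84 ± 0.13). S100A1, an enhancer of calcium cycling, was higher by 0.70 ± 0.14, and the inositol trisphosphate receptor ITPR1 by 0.83 ± 0.14. Outside the list, CAMK1D, a calmodulin-dependent kinase, had 8.94, 8.96, 8.68, 8.60 and 9.38 in the atrium and 2.66, 2.68, 3.79, 3.05 and 3.31 in the ventricle (difference 5.81 ± 0.24, adjusted p = 3.52e-12).

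Among the secretory genes NPPB, which encodes B-type natriuretic peptide, had 10.19, 10.89, 5.41, 8.29 and 11.86 in the atrium and 2.87, 2.48, 3.04, 3.02 and 3.43 in the ventricle, a difference of 6.36 ± 0.83, adjusted p = 1.99e-05. All ventricular arrays lay near the low end, and the atrial arrays spanned 5.41 to 11.86, with array 3 lowest. Without atrial array 3 the difference was 7.34 and without atrial array 5 it was 5.72. Genes of the secretory granule followed. PAM, the amidating monooxygenase that is the main membrane protein of atrial granules, had 13.66, 13.76, 13.62, 13.71 and 13.79 in the atrium and 11.05, 11.06, 10.91, 11.09 and 11.03 in the ventricle (difference 2.68 ± 0.06, adjusted p = 6.59e-17), and all 5 of its probe sets were called higher. CPE, carboxypeptidase E, had 10.47 to 10.95 against 8.36 to 9.69 (difference 1.83 ± 0.25, adjusted p = 3.01e-05). SCG5, the granule chaperone 7B2, had 9.45, 9.41, 9.14, 9.15 and 9.27 against 5.26, 7.99, 5.502, 7.31 and 6.64 (difference 2.74 ± 0.46, adjusted p = 2.87e-04). NPR3, the clearance receptor, which endocardial cells express, had 7.37 to 7.97 against 4.87 to 5.89 (difference 2.204 ± 0.25, adjusted p = 5.06e-06). The vasodilator peptide ADM was higher by 0.58 ± 0.16. Of 27 tested genes of this group 7 were higher (25.9%) and 2 lower (7.41%; 1 without atrial array 2 or 5 or ventricular array 1, 4 or 5 and 1 with the block).

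Genes of fuel use were lower in the atrium more often than higher. Of 42 tested genes of fatty acid uptake and oxidation 18 were lower (42.9%) and 2 higher, with a median of -0.33. FABP3, the heart fatty acid-binding protein, had 12.55, 12.36, 12.51, 11.92 and 12.27 in the atrium and 13.47, 13.42, 13.42, 13.42 and 13.39 in the ventricle (difference -1.10 ± 0.10, adjusted p = 1.39e-07). UCP3, an uncoupling protein of the inner mitochondrial membrane, had 4.46, 3.17, 3.73, 5.76 and 3.41 against 8.13, 7.58, 8.62, 8.13 and 8.63 (difference -4.11 ± 0.43, adjusted p = 1.39e-06). The fatty acid transporter CD36 was lower (difference -0.99 ± 0.13, adjusted p = 2.24e-05). MLYCD, the decarboxylase that removes the inhibitor malonyl-CoA, was lower (difference -1.12 ± 0.09, adjusted p = 6.46e-08). The oxidation enzymes ECI1 and ECHS1 were lower, with differences of -1.68 ± 0.22 and -1.003 ± 0.19, as was the lipid droplet protein PLIN2 at -1.21 ± 0.12. The trifunctional protein genes were not called, with HADHA at -0.21 (-0.50 to 0.08) and HADHB at -0.01 (-0.23 to 0.21), nor was PDK4, a brake on glucose oxidation, at -0.11 (-0.68 to 0.46). FABP4, a fatty acid-binding protein of fat and capillary cells, was higher in the atrium, 10.13 to 11.69 against 8.74 to 10.15 (difference 1.75 ± 0.45, adjusted p = 0.00855).

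Of 48 genes of glucose, lactate, ketone and creatine metabolism 21 were lower (43.8%) and 3 higher (6.25%). BDH1, which oxidizes the ketone body hydroxybutyrate, had 3.85, 4.96, 4.00, 5.32 and 4.51 in the atrium and 8.36, 7.76, 8.14, 8.04 and 8.36 in the ventricle (difference -3.60 ± 0.26, adjusted p = 1.16e-08), and all 5 of its probe sets were called lower. FBP2, the muscle fructose bisphosphatase, had 4.73, 3.05, 6.69, 3.56 and 3.03 against 8.11, 7.58, 7.98, 7.88 and 7.19 (difference -3.54 ± 0.93, adjusted p = 0.00993; -4.16 without atrial array 3). GPD1L, a glycerol phosphate dehydrogenase-like enzyme, the glucose transporter SLC2A1 and the glycogen branching enzyme GBE1 were lower, with differences of -2.30 ± 0.31, -1.41 ± 0.21 and -1.27 ± 0.13. The glycogen phosphorylases went apart: PYGM, the muscle form, was lower in the atrium (difference -1.36 ± 0.32, adjusted p = 0.00493), and PYGL, the liver form, higher (difference 1.40 ± 0.22, adjusted p = 1.58e-04). LDHA, lactate dehydrogenase A, had a difference of 0.07 (-0.06 to 0.20) and was not called, and the glycolytic PGAM1 was higher by 0.38 ± 0.07.

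Genes of the citric acid cycle, the respiratory chain and the mitochondrial ribosome differed by small steps, and those called were lower in the atrium. Of 71 tested genes of the citric acid cycle and the respiratory chain 26 were lower in the atrium (36.6%) and 0 higher, with a median of -0.19 and a range of -0.68 to 0.34. The succinate-CoA ligase genes SUCLA2 and SUCLG2 were lower, with differences of -0.67 ± 0.10 and -0.68 ± 0.16, as were the complex I subunit NDUFV3 at -0.45 ± 0.08 and the complex II subunit SDHA at -0.38 ± 0.08. Of 69 mitochondrial ribosome genes 29 were lower (42%) and 0 higher, with a median of -0.26. MRPL14 had 9.29 to 9.64 in the atrium and 10.07 to 10.20 in the ventricle (difference -0.59 ± 0.07, adjusted p = 6.06e-06). The cytosolic ribosome ran the other way, with 27 of 44 tested genes higher (61.4%), 0 lower and a median of 0.22. RPL10 had a difference of 0.48 ± 0.09, adjusted p = 0.00102. These counts depend on the fit. With the block 11 cytosolic ribosome genes and 17 cycle and respiratory chain genes were called. Without atrial array 2, 17 cytosolic ribosome genes were called, and without atrial array 5, 18 mitochondrial ribosome genes.

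**Figure D4:**
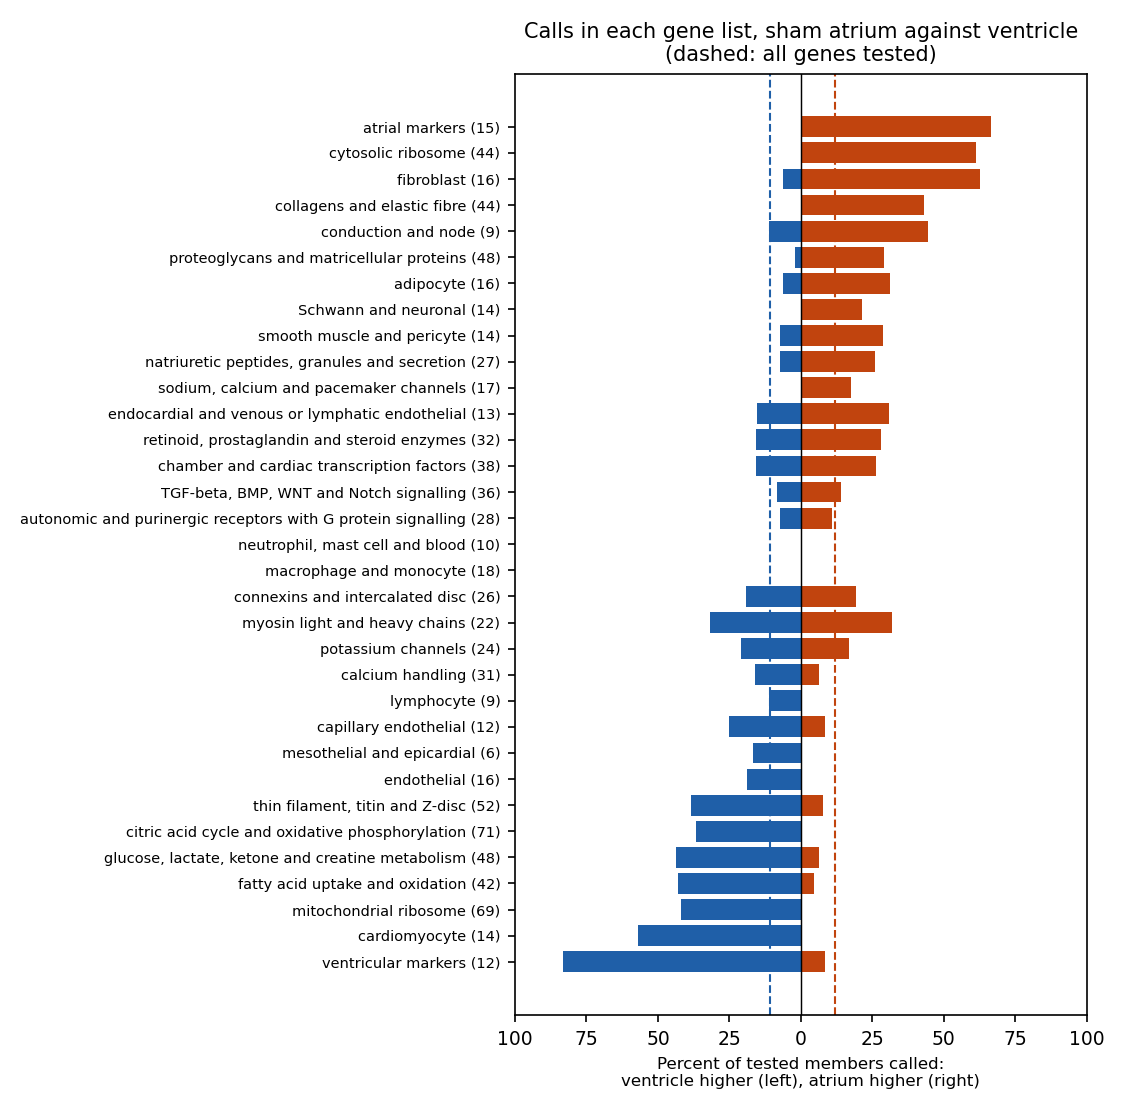
Share of the tested members of each of 33 gene lists (number tested in parentheses) called higher in the sham atrium (orange, to the right) or in the sham ventricle (blue, to the left), in percent; dashed lines mark the shares of all 11423 genes, 12% and 10.8%. Matrix, fibroblast and cytosolic ribosome lists lie on the atrial side, metabolic and mitochondrial lists on the ventricular side.

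Genes of the extracellular matrix were called higher in the atrium more often than lower, 19 of 44 tested genes of collagens and elastic fibres (43.2%) with 0 lower, and 14 of 48 of proteoglycans and matricellular proteins (29.2%) with 1 lower (2 without atrial array 3 or ventricular array 1, 3 or 4, 3 without atrial array 1 and 3 with the block). The medians were 0.38 and 0.18. COL1A1 and COL1A2, the chains of type I collagen, had differences of 1.42 ± 0.31 (adjusted p = 0.00273) and 1.49 ± 0.22 (adjusted p = 8.91e-05). COL14A1, a collagen that decorates fibrils, had 6.89, 7.76, 7.09, 7.44 and 7.81 in the atrium and 3.91, 3.36, 5.02, 2.97 and 2.297 in the ventricle (difference 3.88 ± 0.46, adjusted p = 6.64e-06). Its other 6 probe sets gave 1.28, 0.21, 0.47, 0.93, 0.28 and -0.04, of which 4 were not called, and the mean of all 7 was called at 1.002. The fibulins FBLN1, FBLN2, EFEMP1 and EFEMP2, which bind elastic fibres and basement membranes, were all higher, by 2.32 ± 0.27, 1.599 ± 0.26, 1.87 ± 0.37 and 2.48 ± 0.34. The dimmer second probe sets of FBLN2 and EFEMP1 were not called (0.46 ± 0.24 and 0.92 ± 0.34), and 4 of the 5 probe sets of FBLN1 were. OGN, the leucine-rich proteoglycan osteoglycin, had 8.10, 7.86, 8.45, 8.22 and 8.05 against 4.29, 5.34, 4.21, 5.03 and 3.94 (difference 3.57 ± 0.28, adjusted p = 2.92e-08). EPYC, a related proteoglycan described in cartilage that is not on the list, had 7.99, 6.71, 9.003, 6.52 and 6.35 against 2.47, 2.41, 2.92, 2.78 and 1.89 (difference 4.82 ± 0.46, adjusted p = 4.41e-07). VCAN (versican) and FN1 (fibronectin) were higher by 1.88 ± 0.45 and 1.36 ± 0.30, with overlapping arrays, and FN1 was not called as the mean of its probe sets (0.71, adjusted p = 0.122). The fibrillin FBN1, at 0.42 (-0.03 to 0.87), was not called, and LAMB1, a laminin chain of basement membranes, was lower in the atrium (difference -0.92 ± 0.20, adjusted p = 0.00224).

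Fibroblast markers moved with these genes: 10 of 16 were higher in the atrium (62.5%) and 1 lower (SCARA5; 0 with the block), with a median of 0.86. The mean log2 level over these markers was 7.48 to 8.26 on the atrial and 6.63 to 6.98 on the ventricular arrays. The fibroblast list shares COL1A1, COL1A2, FBLN1, FBLN2, OGN and others with the matrix lists. Cardiomyocyte markers moved in the other direction, 0 of 14 higher and 8 lower (57.1%) with a median of -0.27, though 5 were lower and 2 higher after quantile normalization. Their mean log2 level was 12.26 to 12.38 on the atrial and 12.50 to 12.74 on the ventricular arrays. The part of cell composition in the differences of matrix, mitochondrial and metabolic genes was not tested.

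Of 36 tested genes of TGF-beta, BMP, WNT and Notch signalling 5 were higher and 3 lower in the atrium, 13.9% and 8.33%. This is near the background in the main fit. Those higher were 3 without atrial array 2 or 5 or ventricular array 1, and 8 with the block, so the share of those higher depended on the fit. A few members differed widely. DKK3, a dickkopf family protein, had 13.34, 13.21, 13.02, 13.20 and 13.26 in the atrium and 8.45, 6.59, 8.87, 8.79 and 8.04 in the ventricle (difference 5.06 ± 0.30, adjusted p = 6.07e-10). FRZB, a secreted frizzled-related protein, had 8.66, 7.86, 7.80, 8.05 and 8.18 against 3.92, 4.43, 3.86, 3.77 and 3.45 (difference 4.23 ± 0.19, adjusted p = 1.01e-11). BMP5, a bone morphogenetic protein, had 5.36, 6.12, 5.41, 6.82 and 6.58 against 2.96, 3.65, 3.93, 2.97 and 2.77 (difference 2.80 ± 0.38, adjusted p = 3.03e-05). None of the 3 overlapped between the chambers, which is usual among called genes at least 4-fold apart (148 of 158). TGFB3 and the dim BMP4 were lower in the atrium, with differences of -0.60 ± 0.11 and -0.49 ± 0.09.

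Retinoid, prostaglandin and steroid enzymes held several wide differences. Of this list 9 of 32 were higher (28.1%) and 5 lower (15.6%), against 12% and 10.8% of all genes. Those lower were 2 without ventricular array 4 or 5 and 3 without atrial array 4. HSD17B13, a lipid droplet dehydrogenase known from the liver, had 11.30, 11.56, 9.09, 10.76 and 11.02 in the atrium and 2.27, 1.53, 2.35, 2.63 and 2.38 in the ventricle (difference 8.52 ± 0.60, adjusted p = 7.84e-09), and all 5 of its probe sets were called higher. HPGDS, which makes prostaglandin D, had 9.57, 10.14, 8.56, 9.77 and 9.92 against 2.64, 2.17, 5.36, 2.70 and 2.25, with ventricular array 3 apart from the others (difference 6.57 ± 0.51, adjusted p = 3.14e-08). PTGER4, a receptor for prostaglandin E, was lower in the atrium, 8.99 to 9.69 against 10.25 to 10.71 (difference -1.19 ± 0.18, adjusted p = 7.86e-05). RBP4, the retinol-binding protein, had 7.57, 9.23, 8.52, 8.15 and 8.74 against 4.30, 4.82, 3.89, 3.15 and 2.64 (difference 4.68 ± 0.46, adjusted p = 7.62e-07), and RARRES1, a gene induced by retinoids, 7.37, 8.73, 6.56, 8.91 and 8.43 against 4.89, 5.44, 2.83, 4.24 and 2.19 (difference 4.08 ± 0.67, adjusted p = 2.14e-04).

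Pan-endothelial markers had 0 of 16 higher and 3 lower (18.8%) and a median of -0.06. The percents in this paragraph are to be set beside 12% higher and 10.8% lower over all genes. PECAM1 had a difference of 0.07 (-0.11 to 0.26), and VWF and the VEGF receptor KDR were lower in the atrium, with differences of -0.59 ± 0.08 and -0.89 ± 0.22. Capillary markers had 1 of 12 higher (8.33%) and 3 lower (25%). Those higher were 2 without atrial array 1 or 3 or ventricular array 2 and 2 with the block on all 20 arrays. Those lower were 1 without atrial array 3 or ventricular array 4. Of 13 endocardial, venous or lymphatic markers 4 were higher (30.8%) and 2 lower (15.4%; 1 with the block). The higher ones were NPR3, NR2F2, CDH11 (difference 2.28 ± 0.53) and the dim TMEM108 (difference 0.57 ± 0.15). Smooth muscle and pericyte markers had 4 of 14 higher (28.6%) and 1 lower (7.14%). Those lower were 2 without atrial array 4 or 5 or ventricular array 3 and 3 with the block. The mean log2 level over these markers was 7.26 to 7.68 on the atrial and 6.96 to 7.34 on the ventricular arrays. TAGLN, the smooth muscle protein transgelin, had 10.82, 11.03, 10.82, 11.37 and 11.66 in the atrium and 8.68, 8.83, 9.38, 8.38 and 8.34 in the ventricle (difference 2.42 ± 0.30, adjusted p = 9.74e-06), and MCAM was higher by 1.03 ± 0.17. Of Schwann cell and neuronal markers 3 of 14 were higher (21.4%) and 0 lower. These were NCAM1 by 1.08 ± 0.19, adjusted p = 4.24e-04, the dim CDH19 by 0.57 ± 0.11 and STMN2, a neuronal tubulin regulator, by 2.56 ± 0.63. STMN2 had 4.03, 4.67, 3.96, 8.86 and 4.78 in the atrium and 2.82, 2.55, 2.86, 2.62 and 2.66 in the ventricle, and without atrial array 4 its difference was 1.66. On the sham arrays alone STMN2 was not called (adjusted p = 0.0517). Macrophage markers (18 tested) and markers of neutrophils, mast cells and blood (10 tested) had 0 calls in either direction by limma, and 1 and 1 members at an unadjusted p under 0.05. Lymphocyte markers had 0 of 9 higher and 1 lower (11.1%; 0 without ventricular array 3 and 2 without ventricular array 4). For mesothelial and epicardial markers the counts were 0 of 6 higher and 1 lower (16.7%; 0 without atrial array 4 or 5 or ventricular array 3, 4 or 5 and 0 with the block). Of the conduction and node markers 4 of 9 were higher (44.4%), GJA5, ETV1, VSNL1 and SMOC2, and 1 lower (11.1%), IRX3.

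Adipocyte markers were uneven among the atrial samples. ADIPOQ, the adipocyte hormone adiponectin, had 2.44, 7.53, 8.76, 4.93 and 6.54 on atrial arrays 1 to 5 and 2.16, 2.40, 2.11, 2.11 and 2.25 on the ventricular arrays (difference 3.83 ± 0.83, adjusted p = 0.00264). CIDEA, a lipid droplet protein of fat cells, had 2.299, 5.52, 8.69, 4.30 and 7.06 against 2.26, 2.25, 2.59, 2.24 and 2.78 (difference 3.15 ± 0.80, adjusted p = 0.00832). Both were highest on atrial array 3 and at the ventricular level on atrial array 1. Without atrial array 3 the differences were 3.15 and 2.37, and without atrial array 1 they were 4.73 and 3.97. PPARG, the adipocyte nuclear receptor, was higher by 0.88 ± 0.19, and AQP7, the glycerol channel of fat, lower (difference -0.75 ± 0.19). In all 5 of 16 adipocyte markers were higher (31.25%; 3 on the sham arrays alone) and 1 lower (6.25%). The mean log2 level over the 16 markers was 3.27 to 4.70 on the atrial and 3.27 to 3.47 on the ventricular arrays. FABP4, given above among the fatty acid genes, is also an adipocyte gene and was likewise highest on atrial array 3. The part of fat in these differences was not tested.

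**Figure D5:**
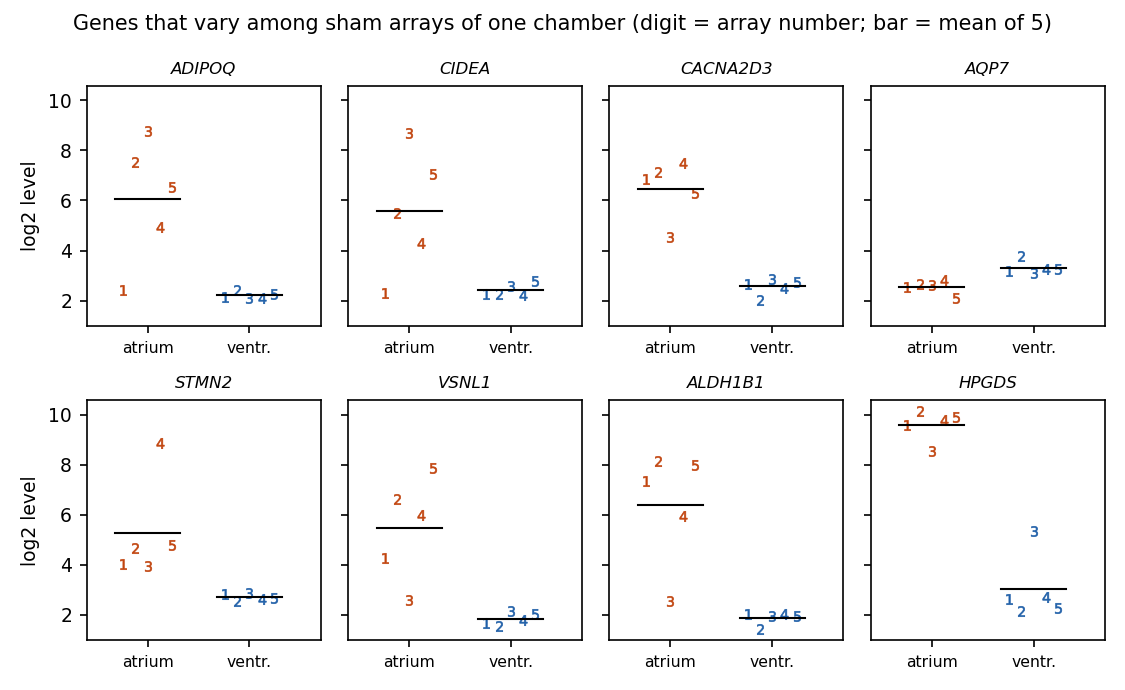
Log2 level of 8 genes on each sham array, atrium in orange and ventricle in blue; digits are array numbers and bars the mean of 5. ADIPOQ and CIDEA run from the ventricular level on atrial array 1 to log2 8 or more on atrial array 3, VSNL1, ALDH1B1 and CACNA2D3 are lowest on atrial array 3, and STMN2 and HPGDS each have 1 array apart.

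The genes with the widest atrial excess also included enzymes and membrane proteins that are on none of the lists. CRYM, a thyroid hormone-binding crystallin, had 10.98, 11.37, 10.64, 11.06 and 11.26 in the atrium and 3.80, 2.06, 4.67, 3.11 and 2.62 in the ventricle (difference 7.81 ± 0.49, adjusted p = 1.57e-09). ETNPPL, which breaks down phosphoethanolamine, had 8.09 to 9.56 against 1.95 to 3.04 (difference 6.46 ± 0.36, adjusted p = 2.59e-10). CDO1, cysteine dioxygenase, had 7.55 to 9.98 against 2.06 to 4.95 (difference 5.21 ± 0.49, adjusted p = 4.24e-07). The microtubule protein MAP7 had 5.81 to 7.41 against 1.68 to 2.28 (difference 4.88 ± 0.40, adjusted p = 5.95e-08). The membrane proteins TMEM178A and SLC35G2 had differences of 5.59 ± 0.40 and 5.29 ± 0.20. EGR1, an immediate early transcription factor, had 7.86, 9.16, 9.10, 7.82 and 10.48 against 5.46, 5.14, 3.63, 4.89 and 3.99 (difference 4.26 ± 0.53, adjusted p = 1.17e-05). GPR37, an orphan receptor, had 7.94, 8.06, 7.35, 8.11 and 8.16 against 2.25, 6.69, 2.66, 3.99 and 2.75, with ventricular array 2 near the atrial values (difference 4.25 ± 0.67, adjusted p = 1.48e-04; 5.01 without that array).

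On the ventricular side, MAPT, the microtubule-binding protein tau, had 4.30, 2.95, 4.40, 3.16 and 2.97 in the atrium and 7.68, 7.55, 8.01, 7.84 and 8.06 in the ventricle (difference -4.27 ± 0.25, adjusted p = 5.85e-10). PLPPR5, a lipid phosphatase-related protein, had 1.72 to 3.56 against 6.37 to 8.81 (difference -5.05 ± 0.71, adjusted p = 4.92e-05). MPPED2, a metallophosphoesterase, had 2.06 to 2.33 against 5.67 to 7.13 (difference -4.50 ± 0.23, adjusted p = 7.60e-11). LEAP2, a peptide known from the liver as an antagonist of the ghrelin receptor, had 4.25, 4.27, 4.62, 4.58 and 3.20 against 9.13, 8.25, 6.57, 9.16 and 9.98 (difference -4.43 ± 0.47, adjusted p = 1.63e-06). FHIT, a hydrolase of dinucleoside polyphosphates, had 3.71 to 5.29 against 8.44 to 9.51 (difference -4.06 ± 0.31, adjusted p = 2.26e-08). PLA2G7, the platelet-activating factor acetylhydrolase, had 6.21 to 7.38 against 9.95 to 10.38 (difference -3.49 ± 0.26, adjusted p = 1.69e-08). KIF23, a kinesin of cell division, had 1.53 to 1.75 against 3.13 to 7.28 (difference -3.99 ± 0.78, adjusted p = 0.00107; -4.62 without ventricular array 2). The glutamate transporter SLC1A2 and the peroxisomal oxidase ACOX2 were higher in the ventricle, with differences of -3.02 ± 0.45 and -2.70 ± 0.50. None of these 9 ventricular genes overlapped between the chambers, and neither did 148 of all 158 called genes at least 4-fold apart.

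Variation among the arrays of a chamber was uneven. Among 5150 genes with a mean of 5 or more in a chamber the SD over the 5 arrays exceeded 1 in 90 genes in the atrium and 53 in the ventricle. Atrial array 3 had the lowest atrial value in 50 of the 112 genes called at least 4-fold higher in the atrium, against 9 to 23 genes for each of the other 4 atrial arrays. Its median deviation from the atrial mean over these genes was -0.25. In the 46 genes called at least 4-fold higher in the ventricle it had the highest atrial value in 20, against 4 to 8 for each of the other atrial arrays. Its median deviation there was 0.22. VSNL1, a neuronal calcium sensor of the conduction list, had 4.28, 6.63, 2.59, 5.98 and 7.88 in the atrium and 1.66, 1.54, 2.16, 1.81 and 2.04 in the ventricle (difference 3.63 ± 0.66, adjusted p = 6.10e-04; 1.77 as the mean of its 2 probe sets), and ALDH1B1, a mitochondrial aldehyde dehydrogenase, 7.36, 8.14, 2.57, 5.94 and 7.99 against 2.03, 1.42, 1.95, 2.03 and 1.94 (difference 4.53 ± 0.71, adjusted p = 1.45e-04). Without atrial array 3 these differences were 4.35 and 5.49, and without atrial array 5 that of VSNL1 was 3.03. Atrial array 3 thus had the lowest atrial level of many atrial genes and the highest atrial level of many ventricular genes. It also had the most ADIPOQ, and whether these are related was not tested. Without atrial array 3, 6334 probe sets were called instead of 6257.

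The values of a gene are those of its brightest probe set, and for a number of genes the size of the difference depended on that choice. As the mean of a gene's probe sets the following moved by over 1.5-fold, while all of them kept their direction and stayed called. Of the transcription factors these were NR2F1 at 3.92, IRX5 at -3.05, ETV1 at 2.17 and PBX3 at 0.99. Of the sarcomere and smooth muscle genes they were MYH7 at -1.79, MYOT at -2.67, ANKRD23 at -3.92, SMYD2 at -3.27 and TAGLN at 3.47, and the mean was further from 0 than the brightest probe set in MYH7, SMYD2 and TAGLN. CTNNA2 kept a wide difference at 4.69 and GJA5 stood at 2.01, while ABCC8 was at 0.96 and the kinase CAMK1D at 4.32. The matrix and signalling genes FBLN1 and DKK3 were at 1.64 and 4.37. Of the metabolic, retinoid and lipid genes the means were BDH1 at -2.02, PYGL at 0.56, HPGDS at 3.44, RBP4 at 2.90, HSD17B13 at 5.15 and CIDEA at 2.15. Of the remaining genes higher in the atrium they were CRYM at 7.07, CDO1 at 3.75, MAP7 at 2.84, ALDH1B1 at 2.40, GPR37 at 2.91 and EGR1 at 2.45, and of those higher in the ventricle PLPPR5 at -4.04, MAPT at -2.95, FHIT at -2.44, KIF23 at -2.34 and ACOX2 at -1.23. The change in CACNA2D3, FGF13, COL14A1 and VSNL1 is given with their values above.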

How the data were processed

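Per the labels' protocols, Trizol was used to extract RNA from left atrial and left ventricular tissue, and the Affymetrix IVT Express kit, with biotin as label, took in 100 ng per sample. The values used are the log2 levels of 43035 probe sets as deposited by the authors. The summarization, background correction and normalization behind them are not given in the sources used here, nor are detection calls, so a dim level cannot be told from background, and the number of arrays limits the precision. Values ranged from 0.43 to 15.0.

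Groups were taken from the sample titles. The 111 control probe sets and the dimmest 30% (mean over all arrays under 1.87) were left out, which left 30047. limma 3.58.1 in R 4.3.3 (lmFit, eBayes) was fitted to group means over all 20 arrays, with 16 residual degrees of freedom, and p-values were adjusted by Benjamini-Hochberg over all probe sets tested. The treat test used a fold of 1.5. The operations' chamber differences were compared by an interaction contrast. Probe sets were named from GEO's platform annotation: 29264 had 1 symbol, 439 several and 13332 none listed. A gene is represented by its probe set with the highest mean over all 20 arrays, which gave 11423 genes. The 3' gaps were tested by exact permutation over 252 splits, for which the smallest two-sided p is 0.0079.

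Genes named are the 4 chamber markers, called genes among the 30 widest differences per direction, and, per list, up to 6 called genes per direction and up to 3 uncalled ones of highest level. The members and the lists were chosen with earlier results of these data known. Equal-numbered sham atrial and ventricular arrays deviated together from their group means (correlations 0.463, 0.226, 0.373, 0.295 and 0.209), so the block pairs sham arrays by number. This pairing comes from the data and not from the labels, and the uninephrectomy numbers did not show it (correlations from -0.235 to 0.115). Alternatives were a block for the array number, sham arrays alone, other filters, a median shift, quantile normalization, eBayes with trend and robust, array weights, the 3' gap as a covariate, the mean of a gene's probe sets, and leaving out each array. The fit was tested on simulated data.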

Additional observations from a re-analysis of the deposited data

Results flagged for a closer look

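In 19 of 308 groups of 5 sham arrays, over the genes given in the text and the 3' gap, 1 array lay apart by Dixon's criterion. Chance alone marks about 1 in 20 groups, which is near this share. No gene named had a chamber difference that differed between the operations by the interaction test.

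Atrial array 1 stood apart in ADM at 10.56 (10.91 to 10.97 on the others) and GRK5 at 6.19 (5.09 to 5.35 on the others). Atrial array 2 stood apart in PPARGC1A at 10.07 (9.86 to 9.92 on the others). Atrial array 3 stood apart in ETV1 at 3.79 (5.71 to 6.26 on the others), KCNJ4 at 3.002 (2.23 to 2.41 on the others), GNAO1 at 7.29 (7.92 to 8.12 on the others), PGAM1 at 11.39 (11.54 to 11.58 on the others) and GPR37 at 7.35 (7.94 to 8.16 on the others). Atrial array 4 stood apart in STMN2 at 8.86 (3.96 to 4.78 on the others). Atrial array 5 stood apart in LEAP2 at 3.20 (4.25 to 4.62 on the others) and ACOX2 at 2.06 (3.19 to 3.52 on the others). Ventricular array 2 stood apart in IRX5 at 5.14 (6.87 to 7.28 on the others), TTN at 13.44 (13.72 to 13.75 on the others), SMYD2 at 10.37 (10.87 to 11.001 on the others), AQP7 at 3.78 (3.09 to 3.25 on the others) and ALDH1B1 at 1.42 (1.94 to 2.03 on the others). Ventricular array 3 stood apart in MYOZ1 at 7.39 (5.91 to 6.26 on the others) and HPGDS at 5.36 (2.17 to 2.70 on the others). Ventricular array 5 stood apart in SOX5 at 2.04 (2.44 to 2.54 on the others).

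The wide gaps were those of STMN2 on atrial array 4, HPGDS on ventricular array 3, ETV1 on atrial array 3 and IRX5 on ventricular array 2. Without them the chamber differences of HPGDS, ETV1 and IRX5 were 7.15, 3.24 and -6.09, against 6.57, 2.79 and -5.70 with all arrays. The cause of these values was not tested.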

How the results depend on the processing

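The sham chamber contrast called 6257 probe sets. With arrays left out in turn it called from 5244 to 6345, and under the other settings from 4999 (sham arrays alone) to 6614 (3' gap as a covariate). No probe set called both ways changed its direction, and 75.5% or more of the calls remained under each setting. With equal array numbers as a replicate block 6411 were called on all 20 arrays and 5968 on the sham arrays alone. Beside the counts given in the text, which include CNTN1 and SCARA5, the block changed the call of PLN and KCNA5 and of no other gene whose difference is given. After quantile normalization 46.7% of the calls were higher in the atrium, against 53.8% as reported. Titin turned from -0.02 to 0.39 (adjusted p = 0.00819) as the mean of its probe sets, of which 4 were called higher. The counts beyond 1.5-fold, those of the uninephrectomized dogs, the interaction and the 3' gap stayed within 1.5 times of the reported value or on their side of the threshold under every setting run for them. Without detection calls, no lower bound can be set for genes near background in a chamber, and their fold differences are uncertain.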

Other observations

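A few genes stood apart on a single array number in both chambers. These were chosen after their values were seen, as genes whose highest or lowest array lay more than 1.5 from the next one in the sham atrium and in the sham ventricle. There were 4 such genes at the low end and 6 at the high end, and in all 10 the array number was the same in both chambers. DECR1, a reductase of unsaturated fatty acid oxidation, had 5.49 on atrial array 1 and 6.92 on ventricular array 1, where the other arrays had 10.63 to 11.05 and 11.12 to 11.37. AMPD1, the muscle AMP deaminase, had 9.14 on atrial array 2 and 9.57 on ventricular array 2, where the others had 1.51 to 1.63 and 1.46 to 1.76. UCHL1, a neuronal deubiquitinase, was low on arrays 5 (3.34 in the atrium and 3.71 in the ventricle), and NLN, the peptidase neurolysin, was high on arrays 1 (7.13 and 7.75). P4HA3, a collagen prolyl hydroxylase subunit, was high on arrays 5 (6.85 and 6.55). OXSM was low on arrays 2 (4.82 and 5.40) and PLAAT4 on arrays 3 (5.40 and 5.92). RIIAD1 was high on arrays 2 (7.05 and 5.21), and GSTZ1 (5.43 and 5.98) and LOC475521 (3.74 and 8.60) on arrays 1. The labels do not say whether equal numbers mark the same dog.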
